A study of Mus musculus with 10 samples.

Results

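The genes described here encode the nuclear subunits of oxidative phosphorylation in the aorta of mice, the large artery that carries blood from the heart. They were chosen by symbol: names starting Nduf (complex I and its Ndufaf assembly factors), Sdha to Sdhd (complex II), Uqcr and Cyc1 (complex III), Cox4 to Cox8 (complex IV) and Atp5 (complex V), leaving out 4 names that hold -ps. This gave 93 of the 35667 genes counted, of which 91 of the 15710 tested genes had enough counts to be compared. RNA sequencing had been done on 10 libraries from aortas of C57BL/6 mice aged 12 weeks. Of these, 5 carry titles naming an Ovgp1 knockout (KO) and 5 are labelled wild type (WT); no other allele, and no treatment, is named for either group. The genotype field names Ovgp1 for KO1 and Ovgp2 to Ovgp5 for KO2 to KO5, and how the knockout was made is not given in the sources used here. The series title concerns Ovgp1 (oviductal glycoprotein 1), hypertension and remodelling of the vessel wall.

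The oxidative phosphorylation complexes sit in the inner mitochondrial membrane. Complexes I and II feed electrons from NADH and succinate into the chain, complexes III and IV pass them on to oxygen, and complex V, the ATP synthase, uses the proton gradient to make ATP. A few subunits of complexes I, III, IV and V are encoded by the mitochondrial genome. The rest are imported products of nuclear genes, among them many small accessory subunits that stabilise the complexes. Smooth muscle of large arteries obtains much of its ATP from this pathway alongside glycolysis, and brown adipocytes, which surround parts of the aorta, are especially rich in mitochondria.

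Facts about the libraries bear on every comparison. Ovgp1, the targeted gene, was higher and not lower in the libraries labelled KO, at 17.8 to 21.9 CPM (counts scaled to a common library total) against 1.98 to 4.69 CPM in WT, so directions below are those of the libraries as labelled. The biological coefficient of variation was 2.83% among KO and 21.2% among WT libraries, and no label says that libraries came from separate animals. P-values therefore measure the spread between these libraries, which may be technical, and the SD among KO libraries is close to counting error alone. For this reason a fit with the KO counts summed into 1 sample is given beside the comparison of 5 with 5. Total counts ran from 21242030 to 26694590 per library. The summed smooth muscle markers, led by Acta2 and Myh11, stood at 38305 to 38901 CPM in KO and 28041 to 41721 CPM in WT, which matches the labelled tissue. Transcripts of the mitochondrial genome made up 7.61 to 7.88% of counts in KO, and 16.2, 6.75, 13.2, 8.92 and 9.59% in WT1 to WT5. WT1 and WT3 had the highest shares.

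Promoters of the family are shown because a few short motifs recur in them, also in members lower in KO. RefSeq (GRCm38.p6) gave promoters, from 250 bases before to 50 after the start, for 74 of the 93 members, 79 in all. The letters GCGC, any 2 bases and GCGC again, the palindromic core bound by NRF1 (nuclear respiratory factor 1), a known activator of respiratory chain genes, were found in 22 of the 79 (27.8%), against 11.9% of the 14039 promoters of tested genes and 6.23% of all 32851. The letters AAGATGGC, bound by YY1, stood in 10 (12.7%), against 4.01% and 2.75%. Both strands were searched, matches may overlap each other, and a promoter was counted once per motif. A gene could have several promoters, and the 22 with the NRF1 letters came from 21 genes. Here are 3 members with the NRF1 letters and 2 with the YY1 letters, all of which were lower in KO, each from 180 bases before to 30 after its start, on the gene's strand, with the motif in capitals. The windows are chr5:115348929-115349138 (minus strand) for Cox6a1, chr5:108434370-108434579 (minus) for Atp5k, chr4:123718157-123718366 (minus) for Ndufs5, chr7:3617193-3617402 (plus) for Ndufa3 and chr3:51408926-51409135 (minus) for Ndufc1.
Cox6a1: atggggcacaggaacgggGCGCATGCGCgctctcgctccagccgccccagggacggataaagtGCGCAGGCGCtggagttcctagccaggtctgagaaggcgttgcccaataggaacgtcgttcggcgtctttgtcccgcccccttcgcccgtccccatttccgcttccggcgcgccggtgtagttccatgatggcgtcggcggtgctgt
Atp5k: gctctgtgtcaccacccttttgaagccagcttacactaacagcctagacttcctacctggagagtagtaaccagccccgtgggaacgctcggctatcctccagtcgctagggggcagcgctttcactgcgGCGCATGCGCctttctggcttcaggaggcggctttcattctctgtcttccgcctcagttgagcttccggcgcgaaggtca
Ndufs5: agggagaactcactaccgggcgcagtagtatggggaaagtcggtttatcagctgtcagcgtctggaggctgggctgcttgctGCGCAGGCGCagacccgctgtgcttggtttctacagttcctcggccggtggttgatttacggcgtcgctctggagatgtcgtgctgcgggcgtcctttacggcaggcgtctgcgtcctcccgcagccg
Ndufa3: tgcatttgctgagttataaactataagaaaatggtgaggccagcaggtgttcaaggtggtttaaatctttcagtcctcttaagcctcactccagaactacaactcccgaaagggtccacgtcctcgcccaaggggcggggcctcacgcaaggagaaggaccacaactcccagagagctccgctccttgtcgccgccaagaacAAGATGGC
Ndufc1: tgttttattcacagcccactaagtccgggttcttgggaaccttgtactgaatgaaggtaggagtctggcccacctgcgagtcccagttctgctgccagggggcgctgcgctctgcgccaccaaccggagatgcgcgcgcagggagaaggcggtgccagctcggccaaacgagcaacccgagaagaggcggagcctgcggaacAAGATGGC

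Counted from the start, Cox6a1 held the NRF1 letters at -162 and -117, Atp5k at -50 and Ndufs5 at -98. In Ndufa3 and Ndufc1 the YY1 letters began at base 23 of the transcript, and of the 10 promoters with these letters 9 had them between base 11 and base 39 after the start, the exception being Atp5j. Among promoters of members lower in KO, 9 of 26 (34.6%) held the NRF1 letters, and among those of the other members 13 of 53 (24.5%). Ndufa5, lower in KO, has overlapping promoters that hold the same match, at -190 and at -26, and each was counted. Of the other letters searched, CCGGAAGT (ETS factors) stood in 6.33% of member promoters and 7.30% of those of tested genes, GGGCGGGG (SP1) in 17.7% and 30.9%, and TCAAGGTCA (the estrogen-related receptor ERRA) in 2.53% and 0.278%. A match is a run of letters and not a measured binding site.

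Members were lower more often than higher in the libraries labelled KO, among them the 5 small subunits of complex III, the 3 small membrane subunits of complex V and 14 of 30 accessory subunits of complex I. Of 91 tested members, 31 (34.1%) were lower at an adjusted p under 0.05 in edgeR's quasi-likelihood test and 0 were higher, while 60 did not pass. Over all 15710 tested genes, 7.43% were lower and 6.84% higher. The differences were small: the 31 lay between 9.95 and 32.2% below the WT level. The median log2 difference (KO minus WT) was -0.15 over the 91 members and -0.02 over all tested genes, and 77 of the 91 were below 0 (84.6%, against 54.2% of all genes). In 32 members every KO library lay below every WT library, which held for 7.22% of all genes, and in 0 members did every KO library lie above (7.38% of all genes). At an unadjusted p under 0.05, 41 members were lower (16.2% of all genes) and 0 higher (13.2% of all genes). DESeq2 called 34 lower and 0 higher (9.53 and 9.41% of all genes), and limma-voom with sample weights called 54 lower and 5 higher (22.2 and 19.1%).

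These calls rest on counting KO as 5 samples and on the scaling. With KO summed into 1 sample, edgeR called 0 members in either direction (0% of all genes lower, 0.0446% higher), and 7 members were lower and 0 higher at an unadjusted p under 0.05 (1.36 and 2.36% of all genes); these were Atp5d, Atp5e, Atp5l, Atp5o, Cox4i1, Ndufb5 and Uqcr11. With total counts in place of TMM factors, 9 members were lower and 0 higher (3.14% of all genes lower, 9.94% higher). In that scaling, the split over all genes was 493 lower to 1561 higher, against 1167 to 1075 with TMM, and the members' median log2 difference was then -0.08 and that of all genes 0.05. Without KO1, KO2, KO3, KO4 or KO5 in turn, 20, 21, 20, 19 and 19 members were lower (3.97, 3.95, 4.33, 3.99 and 3.99% of all genes). With no count filter, 15 were lower and 0 higher (1.9 and 3.63% of the 35667 genes). All 31 were below 0 in every alternative run, and 8 (Atp5d, Atp5e, Atp5l, Atp5o, Cox4i1, Ndufb5, Uqcr11 and Uqcrb) passed in each of the 19 other than the summed one.

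**Figure D1:**
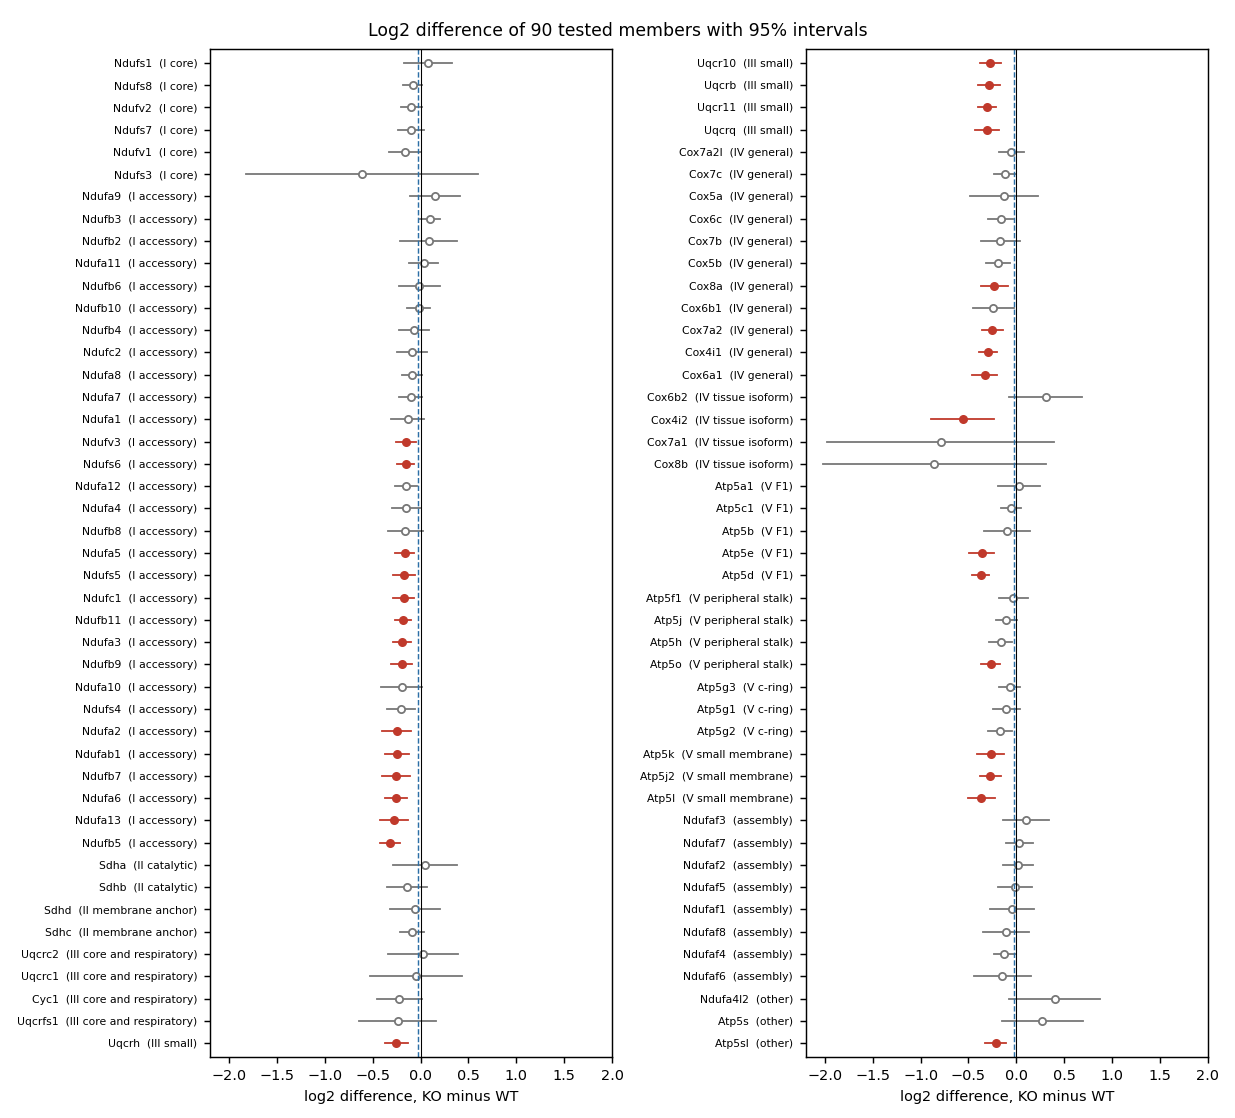
Log2 difference (KO minus WT) of 90 tested members with its 95% interval from edgeR, grouped by complex and role. Filled red points are the 31 members at an adjusted p under 0.05; open grey points did not pass; the dashed line is the median of all tested genes, -0.02. With total counts as the scaling the points move up and 9 members pass.

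Complex I, NADH dehydrogenase, has nuclear core subunits, which hold the flavin, the iron-sulfur clusters and the quinone site, and many accessory subunits around them. Of the 30 accessory members tested, 14 were lower, and of the 7 core members 0 were, with 0 at an unadjusted p under 0.05, 0 in DESeq2 and 3 in limma-voom. This division by role was made after the values had been seen, and the difference between the groups was not tested. The accessory members lower in KO were Ndufa2, Ndufa3, Ndufa5, Ndufa6, Ndufa13, Ndufab1, Ndufb5, Ndufb7, Ndufb9, Ndufb11, Ndufc1, Ndufs5, Ndufs6 and Ndufv3, with log2 differences from -0.32 (Ndufb5) to -0.15 (Ndufv3).

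Ndufb5, an accessory subunit of the membrane arm (chromosome 3, 32736990 to 32751566, GRCm38), had 30.2, 31.8, 31.2, 32.1 and 28.9 CPM in KO1 to KO5 and 37.9, 39.3, 39.5, 36.4 and 38.8 CPM in WT1 to WT5. The groups did not overlap, and the highest WT library was 1.08 times the lowest. Its log2 difference was -0.32 (SE 0.048, adjusted p = 0.0019). Ndufa6, another accessory subunit, had 104 to 113 CPM in KO and 132, 138, 129, 118 and 123 CPM in WT, and its log2 difference was -0.26 (SE 0.051, adjusted p = 0.00754). It too was separate between the groups, with WT4 nearest to KO. Ndufab1, the mitochondrial acyl carrier protein, had 20.8 to 23.3 CPM in KO against 24.1 to 28.0 CPM in WT, at -0.25 (SE 0.058, adjusted p = 0.0166). Ndufa13, whose product is also known as GRIM-19, had 125 to 127 CPM in KO and 132 to 169.7 CPM in WT, at -0.28 (SE 0.067, adjusted p = 0.0186). Its exons overlap those of Tssk6 on the opposite strand, and reads of the pair cannot be told apart without strand.

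The weakest calls of complex I were Ndufv3, Ndufs5 and Ndufc1, which lie near the threshold. Ndufs5 had 68.1 to 70.1 CPM in KO and 79.0, 87.4, 74.1, 75.5 and 73.9 CPM in WT (log2 -0.17, SE 0.051, adjusted p = 0.0424). The groups were apart, but its adjusted p ranged from 0.0121 to 0.342 over the alternatives other than the summed one. Ndufc1 had 31.2 to 33.4 CPM in KO and 33.7 to 39.0 CPM in WT (adjusted p = 0.036, range 0.00613 to 0.356). Ndufv3 had an adjusted p of 0.0496 with overlapping groups, and leaving out any KO library, or any WT library other than WT4, ended its call. Ndufa2, Ndufa5 and Ndufb7 held their calls in 7, 7 and 8 of the 19 alternatives. Just outside the threshold across the family stood Cox5b (0.0503) and Ndufs4 (0.0591), which carry the same sign.

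Among the core subunits of complex I, Ndufs1, the large iron-sulfur subunit, had 64.3 to 68.1 CPM in KO and 52.7, 56.9, 52.5, 80.8 and 74.4 CPM in WT. KO stood between WT1 to WT3 below and WT4 and WT5 above (log2 0.08, SE 0.116, adjusted p = 0.705). Ndufv1, Ndufv2, Ndufs7 and Ndufs8, also core subunits, had log2 differences from -0.17 to -0.08. Ndufs3 was low and erratic: KO1 to KO5 had 5.58, 4.40, 1.95, 1.90 and 4.33 CPM, and WT1 to WT5 had 14.4, 4.06, 3.94, 3.91 and 1.35 CPM. Its log2 difference of -0.61 had a 95% interval from -1.83 to 0.60, and it became 0.14 without WT1. A processed pseudogene, Gm12251, matches 75.7% of the Ndufs3 transcript at 98.6% identity and had 3.70 to 6.83 CPM across the libraries, so how reads were shared between them is uncertain.

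Complex II, succinate dehydrogenase, has 4 nuclear subunits and no mitochondrial one. None of the 4 passed (0 lower and 0 higher, and 0 at an unadjusted p under 0.05 by edgeR; 0 in DESeq2, 2 lower in limma-voom). Sdha, the flavoprotein that oxidises succinate, had 269, 277, 275, 266 and 277 CPM in KO and 208, 241, 197, 362 and 316 CPM in WT. WT1, WT2 and WT3 lay below every KO library and WT4 and WT5 above, for a log2 difference of 0.04 (95% interval -0.29 to 0.38, adjusted p = 0.88). Sdhb, the iron-sulfur subunit, had 101 to 107 CPM in KO and 101, 104, 99.4, 145 and 125 CPM in WT. The membrane anchors Sdhc and Sdhd had log2 differences of -0.09 and -0.06.

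In complex III, the cytochrome bc1 complex, all 5 small subunits were lower and 0 of the 4 larger ones (Uqcrc1, Uqcrc2, Cyc1 and Uqcrfs1) passed; at an unadjusted p under 0.05 0 of these 4 did, and DESeq2 called 0 and limma-voom 2. The small subunits Uqcrb, Uqcrh, Uqcrq, Uqcr10 and Uqcr11 had log2 differences from -0.30 to -0.25, and in each every KO library lay below every WT library. Uqcr11 (chromosome 10, 80402997 to 80406830) had 77.0, 74.8, 79.3, 73.1 and 77.0 CPM in KO and 97.5, 98.4, 90.4, 90.5 and 93.6 CPM in WT. The WT libraries hardly differed, and the log2 difference was -0.30 (SE 0.044, adjusted p = 0.00139). Uqcrq had 108 to 117 CPM in KO and 125, 136, 127, 150.4 and 145 CPM in WT (log2 -0.30, SE 0.058, adjusted p = 0.00629). Uqcrb had 50.8 to 55.9 CPM in KO and 59.1 to 70.6 CPM in WT (log2 -0.29, SE 0.052, adjusted p = 0.00474), but 3 processed pseudogenes are at least 97.6% identical over 62.2 to 62.8% of its transcript, so its counts are uncertain.

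The larger subunits of complex III varied far more among WT libraries, with a median coefficient of variation of 27.5% against 6.32% for the small ones, which makes a difference of the same size harder to call. Their log2 differences were -0.24 (Uqcrfs1), -0.22 (Cyc1), -0.05 (Uqcrc1) and 0.03 (Uqcrc2). Those of Uqcrfs1 and Cyc1 were thus near the size of the small subunits' differences. Uqcrfs1, the Rieske iron-sulfur protein, had 77.7 to 81.5 CPM in KO and 66.2, 89.3, 66.4, 134 and 118 CPM in WT. KO stood above WT1 and WT3 and below the other 3. Uqcrc2, a core protein, had 102 to 109 CPM in KO and 76.9, 103, 73.3, 143 and 125 CPM in WT, the same order of WT1 and WT3 below and WT4 and WT5 above. Cyc1, cytochrome c1, had 92.6 to 97.5 CPM in KO and 97.2, 91.6, 99.8, 143 and 124 CPM in WT. Uqcrc1 differed between KO libraries that are otherwise near copies of each other, at 31.3, 34.5, 29.6, 51.1 and 53.1 CPM. Its chi-square per degree of freedom among KO libraries was 84.6, at percentile 99.9 of all tested genes, against a median of 1.40 over all tested genes and 1.47 over members. WT1 to WT5 had 49.1, 40.4, 29.5, 32.6 and 55.0 CPM of Uqcrc1, so both groups spanned the same range.

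Complex IV, cytochrome c oxidase, had 4 of 11 general subunits lower (Cox4i1, Cox6a1, Cox7a2 and Cox8a) and 1 of 4 tested tissue isoforms (Cox4i2). Cox6a1, the general subunit with the highest level per transcript length of the whole family (600.3 CPM per kb in KO and 755 in WT), had 331, 335, 346, 359.5 and 343 CPM in KO and 396, 436, 401, 475 and 446 CPM in WT. Every KO library lay below every WT library, and the log2 difference was -0.33 (SE 0.059, adjusted p = 0.00438). Cox4i1, a large structural and regulatory subunit (chromosome 8, 120668222 to 120674207), had 174 to 182 CPM in KO and 210.0, 223, 212, 230.4 and 226 CPM in WT, at -0.30 (SE 0.044, adjusted p = 0.00169). Cox7a2 had 66.5 to 71.7 CPM in KO against 76.8 to 88.3 CPM in WT, at -0.25 (adjusted p = 0.00928). Cox8a had 179 to 192 CPM in KO against 193, 236, 198, 232 and 225 CPM in WT, at -0.23 (adjusted p = 0.0323), with KO1 and WT1 almost level. The call of Cox8a held in 8 of 19 alternatives and was lost without any single KO library, without WT4 or WT5, and with total counts (adjusted p up to 0.25). All 11 members counted as general subunits were below 0, from -0.33 to -0.05. The upper end was Cox7a2l, which was placed here by its name, and with total counts as the scaling it was at 0.02.

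Several complex IV subunits exist as a general form and a form of particular tissues. Cox4i2, an isoform known from lung and from oxygen-sensing cells of the vasculature, had 4.31, 3.61, 3.56, 3.29 and 3.37 CPM in KO and 6.57, 6.37, 5.19, 4.36 and 4.23 CPM in WT. KO1 lay inside the WT range, and the log2 difference was -0.56 (SE 0.151, adjusted p = 0.0299), which failed without any of KO2 to KO5, WT1 or WT2. It amounted to 1.80 to 2.36% of the Cox4i1 level in KO and 1.87 to 3.13% in WT. Cox6b2, the testis form of Cox6b1, had 5.58 to 7.49 CPM in KO and 3.87 to 7.73 CPM in WT (log2 0.30, adjusted p = 0.275). Cox6a2, the heart and muscle form of Cox6a1, was below the count filter, with 0.239 to 0.787 CPM in KO and 0, 2.52, 0.0499, 0.0412 and 0.371 CPM in WT. Cox7b2 had at most 0.139 CPM in any library and was not tested either.

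Cox7a1 and Cox8b, forms of heart, muscle and brown fat, had the highest ratios of the highest to the lowest WT library among tested members, while Ndufs3 had a larger coefficient of variation (92.2%, against 81.5 and 76.9%). Cox7a1 had 8.62, 8.91, 9.33, 8.55 and 9.32 CPM in KO and 6.52, 10.8, 2.40, 31.0 and 26.4 CPM in WT, a ratio of highest to lowest WT of 12.9. Cox8b had 20.2, 20.6, 21.6, 19.5 and 20.9 CPM in KO and 22.1, 26.0, 4.84, 75.3 and 57.5 CPM in WT, a ratio of 15.6. In both, WT3 was lowest and WT4 and WT5 highest, with KO between. Relative to the general form, Cox7a1 was 12.3 to 13.4% of Cox7a2 in KO and 8.50, 12.3, 3.03, 35.2 and 33.6% in WT, while Cox8b was 10.5 to 11.5% of Cox8a in KO and 11.5, 11.0, 2.44, 32.5 and 25.6% in WT. Their log2 differences of -0.79 and -0.86 did not pass (adjusted p = 0.361 and 0.31), and became 0.43 and 0.21 without WT4 and WT5. Their promoters, printed for comparison with those above (chr7:30183991-30184200, plus strand, and chr7:140900417-140900626, minus strand), held none of the 5 motifs.
Cox7a1: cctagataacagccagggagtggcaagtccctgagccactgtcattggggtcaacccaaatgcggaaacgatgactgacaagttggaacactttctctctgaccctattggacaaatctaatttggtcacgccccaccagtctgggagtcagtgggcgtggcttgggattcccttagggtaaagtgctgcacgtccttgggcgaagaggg
Cox8b: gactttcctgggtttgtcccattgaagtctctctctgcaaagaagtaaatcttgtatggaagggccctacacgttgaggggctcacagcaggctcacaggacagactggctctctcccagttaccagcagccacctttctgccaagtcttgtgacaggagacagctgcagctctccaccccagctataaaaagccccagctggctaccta

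The WT libraries high in these isoforms were also high in markers of brown adipocytes, the thermogenic fat cells. The summed level of 10 brown adipocyte markers was 227 to 245 CPM in KO and 191, 204, 80.0, 890 and 642 CPM in WT1 to WT5, and none of the 10 was at 0 in any library. None passed the test (0 of 10 in edgeR, 1 lower at an unadjusted p under 0.05, 1 in DESeq2 and 6 in limma-voom, all lower). Ucp1, the uncoupling protein of brown fat, had 89.7 to 98.8 CPM in KO and 67.1, 61.7, 8.73, 423 and 295 CPM in WT, the same order of libraries as Cox8b apart from WT1 and WT2. The sum of 8 white adipocyte markers, led by Fabp4, followed the same libraries, at 653, 776, 531, 2129 and 1617 CPM in WT1 to WT5. Fabp4, Pck1, Lipe and Plin1 were each lowest in WT3 and highest in WT4. Adipoq and Cfd were highest in WT4 but lowest in WT2 (16.0 and 47.4 CPM). Lep was highest in WT2 (8.13 CPM) and Retn in WT3 (12.7 CPM). The sum of 6 endothelial markers was 209, 512, 146, 614 and 506 CPM, also lowest in WT3 and highest in WT4. The part of these cells in the members' values was not tested. In bulk tissue, fewer cells of a type and less RNA per cell cannot be told apart. WT4 was the highest WT library for 40 of 91 members (44.0%, against 23.4% of all genes) and WT3 the lowest for 33 (36.3%, against 22.7%). Leaving out WT4 and WT5, 33 members were lower and 5 higher (10.1 and 9.32% of all genes), and 28 of the 31 kept their call. The 5 higher were Atp5a1, Ndufa9, Ndufs1, Sdha and Uqcrc2. Leaving out WT1 and WT3, 47 were lower and 3 higher (13.6 and 13.7% of all genes), and 26 of the 31 kept their call.

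**Figure D2:**
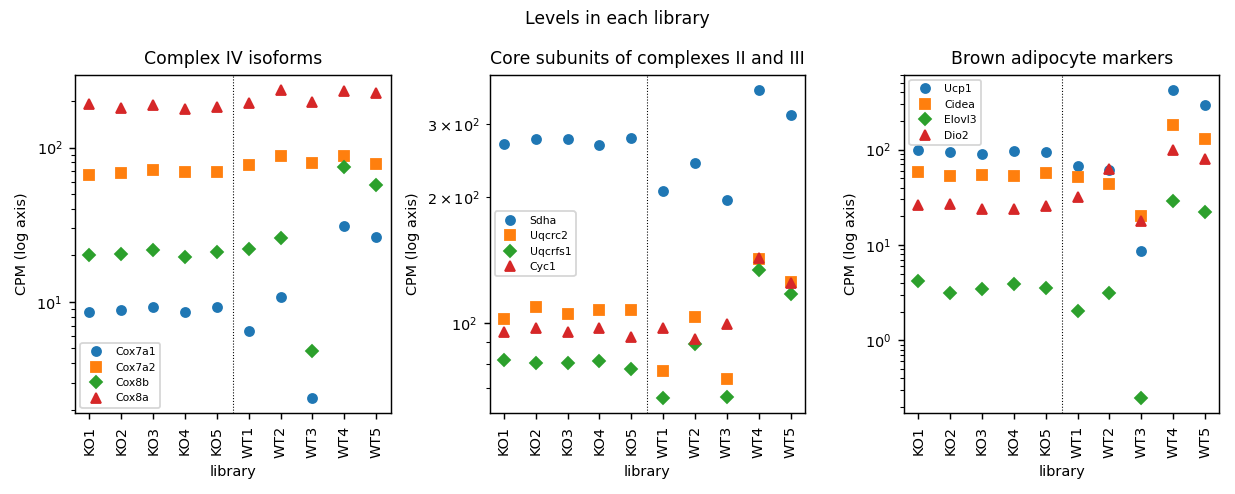
CPM on a log axis in each library, KO to the left and WT to the right of the dotted line, for complex IV isoforms, core subunits of complexes II and III, and 4 brown adipocyte markers. Cox7a1 and Cox8b are lowest in WT3 and highest in WT4 and WT5, as are Ucp1 and the other markers, while Cox7a2 and Cox8a vary little.

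Complex V, the ATP synthase, had 6 of 15 subunits lower. These were the delta and epsilon subunits of the central stalk (Atp5d and Atp5e), the stalk subunit OSCP (Atp5o) and the small membrane subunits f, e and g (Atp5j2, Atp5k and Atp5l). Atp5d (ENSMUSG00000003072, chromosome 10, 80138632 to 80145818) had the smallest adjusted p of any member, with 127, 121, 126, 123 and 123 CPM in KO and 163, 156, 160.4, 166 and 158 CPM in WT. Both groups were tight, at 124 ± 2.33 and 161 ± 4.22 CPM (SD, n = 5 each; adjusted p = 0.000209 in edgeR), and the log2 difference was -0.37 (SE 0.040). With KO as 1 sample its 95% interval was -0.64 to -0.11. Atp5e had 102, 104, 104, 106 and 105 CPM in KO and 139, 138, 149, 121 and 122 CPM in WT, at -0.36 (SE 0.059, adjusted p = 0.00293). It was high in WT1, WT2 and WT3, the reverse of Sdha and Cox8b.

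Atp5j2 had 122 to 131 CPM in KO and 142 to 165 CPM in WT, at -0.27 (SE 0.051, adjusted p = 0.00567). Atp5k had 32.8 to 35.5 CPM in KO and 41.3, 38.5, 47.3, 37.8 and 40.4 CPM in WT, at -0.27 (SE 0.064, adjusted p = 0.0173). Atp5l had 17.3 to 21.3 CPM in KO and 23.4 to 25.1 CPM in WT, at -0.37 (SE 0.064, adjusted p = 0.00389), and Atp5o had 65.1 to 73.0 CPM in KO and 82.1 to 84.9 CPM in WT, at -0.27 (SE 0.045, adjusted p = 0.00299). Both have processed pseudogenes at least 97% identical over more than 50% of the transcript, and 47.9% of the exon bases of Atp5o lie in exons of other annotated genes, so their counts are uncertain.

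The catalytic alpha and beta subunits of the ATP synthase did not pass. Atp5b, with the highest CPM of the family, had 782, 799, 776, 792 and 783 CPM in KO and 699.6, 786, 703, 1075 and 948 CPM in WT. Atp5a1 had 601 to 607 CPM in KO and 487, 576, 502, 722 and 672 CPM in WT. For both, WT1 and WT3 were lowest and WT4 and WT5 highest, and the log2 differences were -0.10 and 0.03. The gamma subunit Atp5c1 was at -0.06, and the proton-translocating c-ring genes Atp5g1, Atp5g2 and Atp5g3, which encode the same mature protein, were at -0.11, -0.17 and -0.07, none passing (0 of 3; Atp5g2 at an unadjusted p under 0.05; 0 in DESeq2 and in limma-voom). The processed pseudogenes Gm10175 and Gm10231 are 100% identical to Atp5g2 over 88.2 and 60.3% of its transcript, so the counts of Atp5g2 are uncertain. Relative to Atp5a1, Atp5d stood at 20.1 to 20.9% in KO and at 23.0 to 33.5% in WT, above KO in each library and highest in WT1 and WT3.

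**Figure D3:**
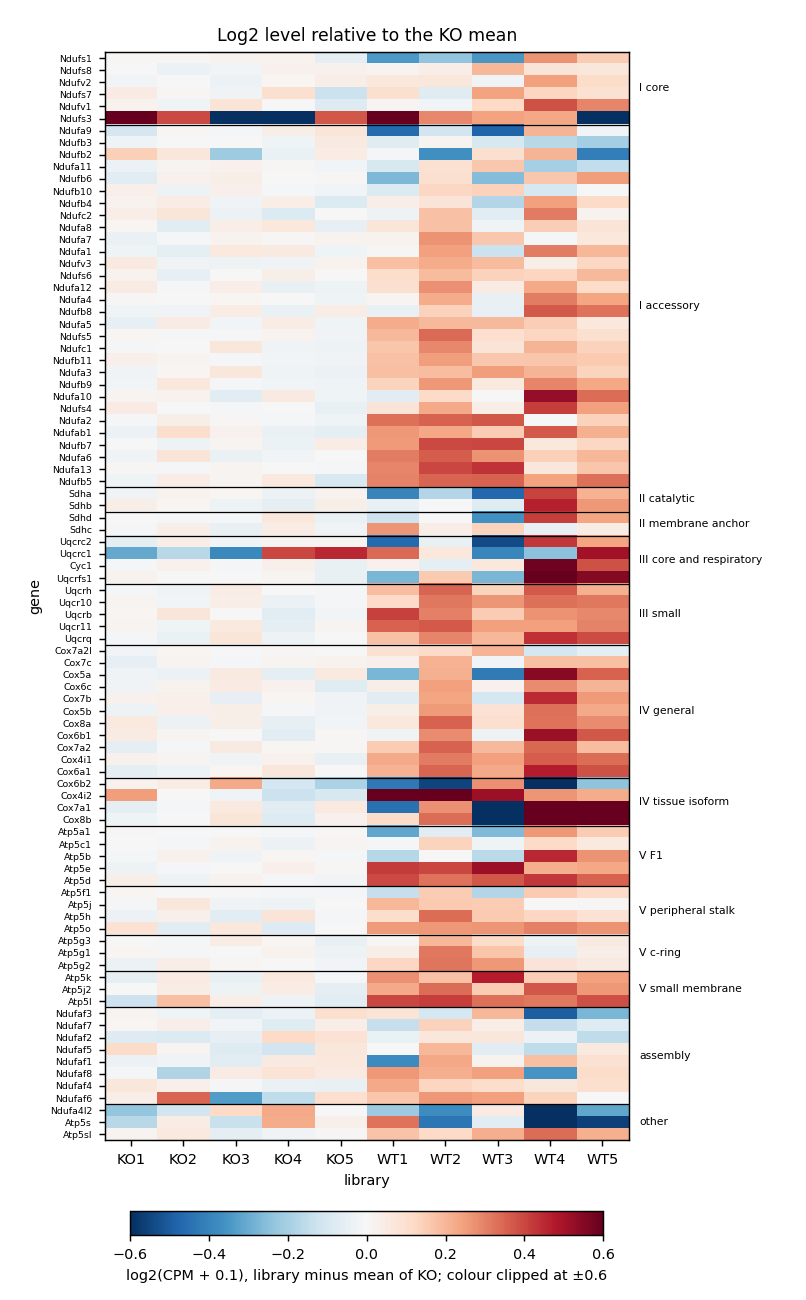
Log2 level of 90 tested members in each library relative to its KO mean (pseudocount 0.1 CPM; colours clipped at 0.6), ordered by role. Small subunits of complexes III and V are red in all 5 WT libraries, while Sdha, Uqcrc2, Uqcrfs1, Ndufs1 and Atp5a1 are blue in WT1 and WT3 and red in WT4 and WT5.

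The Ndufaf genes encode assembly factors of complex I that are not part of the finished complex. Of the 8 Ndufaf genes 0 passed (1 lower at an unadjusted p under 0.05, Ndufaf4; 0 in DESeq2, 1 higher in limma-voom), with log2 differences from -0.15 to 0.10. Atp5sl, named after the ATP synthase but not a subunit of it, had 33.0 to 35.9 CPM in KO and 37.3 to 43.5 CPM in WT (log2 -0.21, adjusted p = 0.0173). Ndufa4l2, a hypoxia-induced relative of Ndufa4, had 6.14 to 8.48 CPM in KO and 6.21, 5.56, 7.49, 2.68 and 5.80 CPM in WT (log2 0.40, adjusted p = 0.245).

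Summed over each complex, the nuclear transcripts of complexes I, III and IV were lower in every KO than in every WT library with TMM scaling, though not with total counts. Complex I summed to 2789 to 2826 CPM in KO and to 2957, 3168, 3006, 3188 and 3104 CPM in WT1 to WT5. Complex III summed to 784 to 803 CPM in KO and to 841, 918, 812, 1054 and 1005 CPM in WT. Complex IV summed to 1671 to 1701 CPM in KO and to 1794, 2047, 1796, 2194 and 2067 CPM in WT. For complexes II and V the groups overlapped: complex II summed to 586 to 597 CPM in KO and 504 to 741 CPM in WT, and complex V to 2744 to 2781 CPM in KO and 2697 to 3334 CPM in WT. The log2 ratios of the group means were -0.13, -0.03, -0.22, -0.23 and -0.11 for complexes I to V; with total counts they were -0.06, 0.04, -0.15, -0.16 and -0.04, and WT1 and WT3 then lay below the KO libraries for complexes I to V. The sums are led by the most abundant subunits and carry no test. The members' share of all counts was 0.904 to 0.913% in KO and 0.819, 1.00, 0.857, 1.07 and 1.02% in WT.

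**Figure D4:**
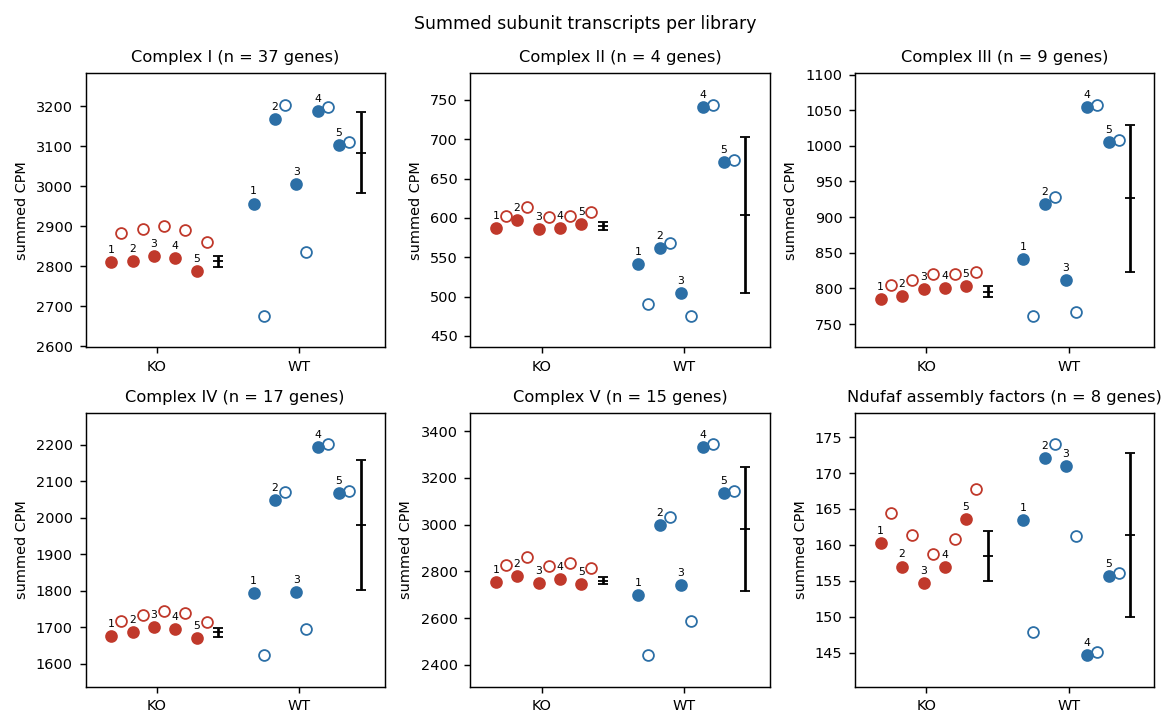
Summed CPM of each complex and of the Ndufaf factors in each library (numbered), with TMM scaling (filled points) and with total counts only (open points); bars are the mean and SD of the filled points, n = 5, and the axes do not start at 0. Filled KO points lie below all filled WT points for complexes I, III and IV, and open KO points do not lie below all open WT points.

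Compared per transcript length (GENCODE M21 principal transcripts), the most abundant members of each complex were Ndufa4, Ndufa11 and Ndufa6 in complex I, at 271, 216 and 182 CPM per kb in KO and 302, 211 and 217 in WT. Complex III was led by Uqcr10, Uqcrh and Uqcr11, at 243, 233 and 171 CPM per kb in KO and 293, 278 and 211 in WT. In both of these complexes the leading members were small subunits or accessory ones. Complex IV was led by Cox6a1, then Cox8a and Cox7c at 336 and 314 CPM per kb in KO and 394 and 341 in WT. A processed pseudogene, Gm10012, is 99.4% identical to Cox7c over 58.3% of its transcript, so the level of Cox7c is uncertain. Complex V was led by Atp5b, Atp5e and Atp5a1, at 410.5, 248 and 244 CPM per kb in KO and 439.6, 318 and 239.6 in WT. Complex II was lower, with Sdhb, Sdha and Sdhd at 91.5, 94.1 and 65.4 CPM per kb in KO and 100.6, 91.3 and 68.1 in WT. Ndufa4 is listed with complex I by its name and is now placed with complex IV, and moving it gave log2 ratios of the sums of -0.13 for complex I and -0.23 for complex IV.

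The difference between the groups varied with the length of the coding sequence. Of the 23 members with a coding sequence up to 300 bases, 12 were lower (52.2%), with a median log2 difference of -0.24. The share was 37.5% of 24 members between 300 and 450 bases, 38.9% of 18 up to 600 and 20% of 10 up to 900. It was 8.33% of 12 between 900 and 1500, and 0 of 4 longer members were lower. Over all tested genes the shares lower in the same bins were 14.1, 13.7, 8.97, 8.21, 6.64 and 6.52%. The medians of all tested genes were -0.08 up to 300 bases and -0.01 above 1500. Spearman's rho between coding length and log2 difference was 0.37 over 91 members and 0.04 over 13577 genes, across genes that share libraries and are not independent. Coding length and subunit role go together in this family and cannot be told apart, and no measure of RNA quality is given, so its part was not tested.

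**Figure D5:**
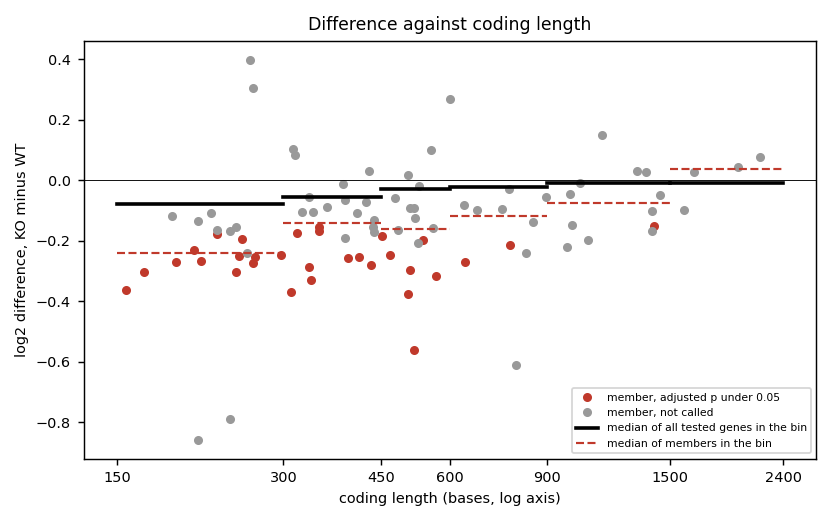
Log2 difference (KO minus WT) of each tested member against its coding length on a log axis, red where the adjusted p was under 0.05. Dashed red lines are medians of members and black lines medians of all tested genes in the same length bins; up to 300 bases these are -0.24 and -0.08.

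Genes that work with these complexes are given by their counts. Over all tested genes, 7.43% were lower and 6.84% higher in edgeR, and 16.2 and 13.2% at an unadjusted p under 0.05. DESeq2 called 9.53% of all genes lower and limma-voom 22.2%. No list had more than 1 gene called in edgeR, and the lists were not tested as sets. The 13 protein-coding genes of the mitochondrial genome gave 0 of 12 tested lower or higher in edgeR, with 9 lower and 0 higher at an unadjusted p under 0.05, 5 lower in DESeq2 and 10 in limma-voom; they summed to 71759 to 74058 CPM in KO and 64125 to 171092 CPM in WT, and the most abundant, mt-Co1 and mt-Cytb, were highest in WT1 and WT3. Of 14 complex I assembly factors, the Ndufaf genes included, 1 was lower, Ecsit, which also acts in Toll-like receptor signalling (log2 -0.30, adjusted p = 0.0386). Of 5 for complex III, 1 was lower, Uqcc3 (-0.24, adjusted p = 0.0128), and of 10 tested for complex IV, 1 was lower, Cox19 (-0.24, adjusted p = 0.0398). Of 3 for complex V, 1 was higher, Atpaf1 (0.26, adjusted p = 0.0429), and of 4 for complex II 0 passed, with 0 at an unadjusted p under 0.05 and 0 in the other tools. Among 5 electron carriers and the ATPase inhibitor 1 was lower, Etfb, a subunit of the electron transfer flavoprotein of fatty acid oxidation, at 0.674 to 0.987 CPM in KO and 1.15 to 2.40 in WT. Among 14 regulators of mitochondrial genes 1 was lower, Yy1 (-0.16, adjusted p = 0.0463), with 73.4 to 79.1 CPM in KO and 79.1 to 92.3 CPM in WT. Among 13 citric acid cycle enzymes 1 was higher, Suclg2, a subunit of the GTP-forming succinyl-CoA ligase (0.30, adjusted p = 0.00377).

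Markers of other cells also moved between the groups, and their part in the members' differences was not tested. The shares over all tested genes were 7.43% lower and 6.84% higher. Of 5 tested red cell markers 5 were lower, with the summed level of all 6 at 19.2 to 21.3 CPM in KO and 65.8 to 327 in WT (Slc4a1 at 0 in some libraries). Of 8 tested lymphocyte markers 4 were higher, at 277 to 281 CPM summed over 9 in KO and 9.60 to 27.8 in WT (Trac at 0 in some). Of 7 fibroblast markers 4 were higher and 0 lower. At an unadjusted p under 0.05 in edgeR 5 were higher and 1 lower (13.2 and 16.2% of all genes). They summed to 2608 to 2664 CPM in KO and 1993 to 2328 in WT, led by Dcn at 1505 to 1557 and 967 to 1283 CPM. Col1a1 went the other way, at a log2 difference of -0.34 with overlapping groups, and Pdgfra was at -0.05. Of 8 smooth muscle markers 1 was higher (Mylk) and 1 lower (Tagln). Tagln was near the threshold (adjusted p = 0.0458) with overlapping groups, at 20.8 to 23.5 CPM in KO and 22.3 to 29.3 CPM in WT. That is far below Acta2, at 14722 CPM or more in every library, and the reason was not tested. The white adipocyte, endothelial and striated muscle lists had 0 of 8, 0 of 6 and 0 of 9 tested markers passing in edgeR, and 0 in DESeq2. At an unadjusted p under 0.05 in edgeR, 0, 1 and 1 were lower and 0 higher. With limma-voom 3, 2 and 1 were lower, and 2 striated muscle markers were higher. These lists summed to 818 to 854, 267 to 276 and 86.4 to 91.2 CPM in KO and to 531 to 2129, 146 to 614 and 62.5 to 183 CPM in WT.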

How the data were processed

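Per the labels, Trizol RNA from frozen aortas went into Illumina TruSeq RNA libraries. Deposited per library are raw whole-number read counts per Ensembl gene, as the authors made them; every gene has at least 1 count in some library. Bowtie 0.12.2 (an aligner) and 2 builds, mm8 and mm9, appear in the submitters' processing notes without roles. The counting tool is not given in the sources used here, nor is strandedness. Libraries were grouped by title, 5 KO and 5 WT. The test was edgeR 4.0.16 (R 4.3.3) quasi-likelihood with robust estimation, TMM factors and filterByExpr (minimum count 10, minimum total 15), fitted on all genes, with Benjamini-Hochberg adjustment and a threshold of 0.05; every adjusted p of a gene comes from it unless another tool is named. CPM are TMM-scaled. The fit was tested on simulated data in which both groups had the same spread and changed genes differed by more than the members called here. That test does not cover the unequal spread of these libraries. Alternatives were RLE factors, total counts, no mitochondrial transcripts, no filter, a replicate block, DESeq2 1.42.0, limma-voom (limma 3.58.1) with sample weights, KO summed into 1 sample, and libraries left out. Transcript lengths, positions and near copies (blastn 2.17.0, at least 97% identity over 50% of the transcript) come from GENCODE M21 (GRCm38).

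The members, the lists of related genes and markers, and the pairs of WT libraries left out were chosen with earlier results of these data known. The genes named are members past the threshold, isoform families, the 3 most abundant per length and the greatest difference in each complex, Ovgp1, and list genes past the threshold (at most 4 per list); the most abundant list genes were named only where a result turned on them. Other core subunits were named after their values were seen; 1 tested member is counted but its own values are not reported here.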

Additional observations from a re-analysis of the deposited data

Results flagged for a closer look

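In 7 of 168 groups of 5 libraries, 1 library stood apart from the other 4 by a gap larger than Dixon's critical value of 0.71 of the group's range; chance flags about 1 in 20 groups. Ndufs3 had 14.4 CPM in WT1 against 1.35 to 4.06 CPM in the other WT libraries. Cox6a2 had 2.52 CPM in WT2 against 0 to 0.371 CPM, and Cox7b2 had 0.139 CPM in WT5 against 0 in the others. Atp5o had 84.9 CPM in WT4 against 82.1 to 82.8 CPM, and Ndufb11 had 114.9 CPM in WT2 against 108 to 109 CPM. Among KO libraries, Ndufb9 had 124 CPM in KO2 against 118 to 119 CPM, and Ndufs1 had 64.3 CPM in KO5 against 67.2 to 68.1 CPM. No explanation for these values was tested.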

How the results depend on the processing

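The 31 members lower in KO kept their sign under every alternative, and the count of members called moved as follows. With total counts 9 were lower, with no count filter 15, with limma-voom 54 (and 5 higher), without WT1 and WT3 47 (3 higher), without WT4 and WT5 33 (5 higher), and with KO as 1 sample 0. Leaving out 1 KO library gave 19 to 21 lower and leaving out 1 WT library 24 to 36, with 0 or 1 higher; over all genes the range was 626 to 1361 lower and 656 to 1374 higher. Over all genes, total counts gave 493 lower, no filter 676, limma-voom 3482 lower and 2995 higher, leaving out WT1 and WT3 2182 and 2204, and KO as 1 sample 0 lower (214 at an unadjusted p under 0.05) and 7 higher. For each of these the cause was not tested, except that the unfiltered fit tests 35667 genes. The log2 ratio of the complex I sums became -0.058 with total counts; the other complex sums moved by less than the spread between WT libraries.

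Replicate numbers are shared between the groups, but same-numbered libraries did not deviate together. Correlations of deviations ran from -0.04 to 0.04, and 2 of 5 KO libraries matched best with their own number. Because the spread among KO libraries is close to counting error alone, this check cannot tell whether the numbers pair the samples. With the replicate block 18 members were lower and 0 higher, and 625 genes were lower and 694 higher.

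Among the genes followed by name through the alternatives, which are not all 91 tested members, signs turned for some that did not pass, given as log2 differences. With total counts these were Atp5g3 0.0052, Cox7a2l 0.024, Sdhd 0.011, Uqcrc1 0.028 and Atp5c1 0.018, and with no filter Uqcrc1 0.000315. With limma-voom they were Atp5a1 -0.12, Cox7a2l 0.038, Ndufs3 0.80, Sdha -0.17, Uqcrc2 -0.19 and Ndufs1 -0.11. Without WT1 and WT3 they were Atp5a1 -0.11, Cox7a2l 0.025, Ndufs3 0.22, Sdha -0.15, Uqcrc2 -0.20, Sdhc 0.0023 and Ndufs1 -0.062. Without WT4 and WT5 they were Atp5b 0.11, Cox7a1 0.43, Cox8b 0.21, Ndufa11 -0.055, Sdhb 0.039, Sdhd 0.15, Uqcrc1 0.0074, Uqcrfs1 0.12, Cox5a 0.13, Ucp1 1.04, Cidea 0.50 and Cycs 0.14. With the replicate block Ucp1 was at 0.020. Leaving out 1 library at a time turned Atp5a1, Atp5b, Ndufa11, Ndufs3, Sdha, Sdhd, Uqcrc1 and Uqcrc2, over ranges of -0.025 to 0.11, -0.16 to 0.0047, -0.0061 to 0.085, -0.86 to 0.14, -0.045 to 0.18, -0.15 to 0.048, -0.17 to 0.075 and -0.075 to 0.17 in that order. Depth limits the untested isoforms Cox6a2 and Cox7b2.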
